A study of Homo sapiens with 11 samples.

Results

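Deoxynucleotide supply was followed in HEC50B endometrial cancer cells through 9 genes, 8 encoding enzymes that make, phosphorylate or clear deoxynucleotides and 1 encoding a nucleoside carrier. The genes are RRM1, RRM2, TYMS, TK1, DUT, DCTPP1, DTYMK, CMPK1 and SLC29A1, chosen by name, and each was found under exactly 1 of the 57736 gene IDs of the deposited count table. The study grew a parental line that carries the PPP2R1A substitution R183W beside an isogenic line in which CRISPR had restored wild-type (WT) PPP2R1A, and gave each either vehicle or WM1119 at 50 µM for 4 days. PPP2R1A is the scaffold of PP2A, a serine/threonine phosphatase, and WM1119 inhibits the lysine acetyltransferase KAT6A. There were 3 RNA-seq libraries each of R183W vehicle, WT vehicle and WT WM1119 cells, and 2 of R183W WM1119 cells. All 4 groups share the HEC50B background, so WT names the edited line and not a normal tissue, and how many edited clones it holds is not stated. Replicates are numbered in the labels, which do not call them separate cultures, so p-values measure only the spread between these libraries, which may be technical.

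Cells that copy their DNA need the 4 deoxynucleoside triphosphates (dNTPs) at once and in balance. Ribonucleotide reductase, built from the large subunit RRM1 and the small subunit RRM2, turns ribonucleotides into deoxynucleotides and is the rate-limiting enzyme of the pathway. Thymidine nucleotides have 2 routes: TYMS methylates dUMP to dTMP with a folate cofactor, and TK1 phosphorylates thymidine taken up from outside, a salvage step that the carrier SLC29A1 feeds. DTYMK then phosphorylates the dTMP that both routes make, and CMPK1 phosphorylates CMP, UMP and dCMP. DUT destroys dUTP, which keeps uracil out of DNA and delivers the dUMP that TYMS uses, while DCTPP1 hydrolyses dCTP and modified cytosine nucleotides. RRM2, TYMS and TK1 are known as S phase genes under control of the E2F transcription factors, and TYMS and ribonucleotide reductase are targets of anticancer drugs.

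Library totals ran from 2609922 to 6065149 counts, and single counts of the 9 genes ran from 56 to 1016, well above the floor of 3 counts. CPM below stands for counts scaled by library total and TMM factor, and all 9 genes passed the filter that left 13980 genes for testing. The lowest total belonged to WT WM1119 library 3, whose log2 CPM over genes correlated at 0.917 and 0.937 with the rest of its group, while the other replicate pairs gave 0.957 to 0.975. Counts of called supply genes, and the list counts that moved most, are therefore given with and without it. Of the epithelial markers, KRT8, KRT18, EPCAM and PAX8 were present in every library, and KRT19 and CDH1 were at or near 0. Summed leukocyte markers reached at most 11.2 CPM, nearly all from CD68, and endothelial markers 0.856 CPM. Of the stromal markers COL1A1 (565 to 927 CPM) and PDGFRA (80.9 to 184 CPM) were present, LUM was low (0 to 4.14 CPM), and COL1A2, COL3A1, DCN and THY1 were at or near 0. PPP2R1A itself stood at 34.3 ± 2.86 CPM (SD, n = 3) in R183W vehicle and 23.2 ± 2.69 in WT vehicle libraries, and gene-level counts cannot show the substitution. KAT6A transcripts were present in all groups, with means of 149 to 223 CPM, and a transcript level does not report on inhibition of the protein.

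The promoter windows of the 4 genes that passed a test in at least 1 comparison are shown first. RRM2, TYMS and TK1 are known as E2F-controlled genes, and whether the letters marked below drive expression was not tested. RefSeq windows of 300 bases, 250 before the start site and 50 after it (GRCh38.p14), were available for all 9 genes, 15 windows in all. They were searched on both strands for the E2F type motif, spelled as TTGGCGC, as TTCCCGC, as TTCGCGC or as TTGCCGC. The same search covered the CCAAT box, spelled CCAAT, and the CHR type motif, spelled as TTTGAA or as TTCGAA, the latter reading alike on both strands. Matches of different motifs did not overlap in these windows. For each gene the window with the most matches is printed 5′ to 3′ along the strand of the gene, with matches in capitals, read as the complement where the motif lies on the other strand. The TK1 window lies at chr17:78187003-78187302 on the minus strand, TYMS at chr18:657403-657702, RRM2 at chr2:10122489-10122788 and DUT at chr15:48331947-48332246, all 3 of these on the plus strand.
TK1: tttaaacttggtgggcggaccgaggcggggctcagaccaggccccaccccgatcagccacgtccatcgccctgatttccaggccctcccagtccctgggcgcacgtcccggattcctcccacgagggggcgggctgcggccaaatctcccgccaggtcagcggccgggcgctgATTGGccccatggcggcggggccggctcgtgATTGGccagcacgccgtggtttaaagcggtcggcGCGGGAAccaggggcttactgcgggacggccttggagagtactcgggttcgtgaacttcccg
TYMS: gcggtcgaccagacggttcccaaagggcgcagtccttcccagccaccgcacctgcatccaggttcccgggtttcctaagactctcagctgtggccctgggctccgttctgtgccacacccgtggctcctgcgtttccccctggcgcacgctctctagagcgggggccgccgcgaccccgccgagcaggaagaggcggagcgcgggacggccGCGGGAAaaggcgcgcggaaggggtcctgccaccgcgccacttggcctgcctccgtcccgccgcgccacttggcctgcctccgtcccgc
RRM2: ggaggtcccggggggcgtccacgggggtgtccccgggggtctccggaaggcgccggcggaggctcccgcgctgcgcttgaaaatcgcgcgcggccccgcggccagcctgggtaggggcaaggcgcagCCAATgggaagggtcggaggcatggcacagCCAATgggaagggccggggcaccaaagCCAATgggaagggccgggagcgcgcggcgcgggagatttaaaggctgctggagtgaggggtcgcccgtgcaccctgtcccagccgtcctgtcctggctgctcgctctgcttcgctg
DUT: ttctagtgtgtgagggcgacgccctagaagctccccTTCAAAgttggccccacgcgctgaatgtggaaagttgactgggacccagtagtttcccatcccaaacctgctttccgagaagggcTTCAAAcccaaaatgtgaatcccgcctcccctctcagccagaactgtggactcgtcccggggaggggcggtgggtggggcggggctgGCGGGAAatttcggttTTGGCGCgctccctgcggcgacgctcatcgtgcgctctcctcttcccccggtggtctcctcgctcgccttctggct

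TK1 held a CCAAT pair, each read as ATTGG, and 1 E2F type match that began 12 bases before the start site. TYMS held 1 E2F type match and no CCAAT box. The RRM2 window held 3 CCAAT boxes in close order, and its other window held an E2F type match. DUT held 2 E2F type matches close to the start site and 2 CHR type matches farther out, each read as TTCAAA. An E2F type match was present in 5 of the 15 windows, those of TK1, TYMS, RRM2, DUT and RRM1, beside 13% of all 35116 promoter windows. CCAAT boxes were present in 5 windows of 4 genes, beside 34.6% of all windows, and CHR type motifs in 4 windows of 4 genes, beside 16.4%. CMPK1 and DCTPP1 held no match to any of these letters. A match is a description of the letters, and binding was not measured here.

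**Figure D1:**
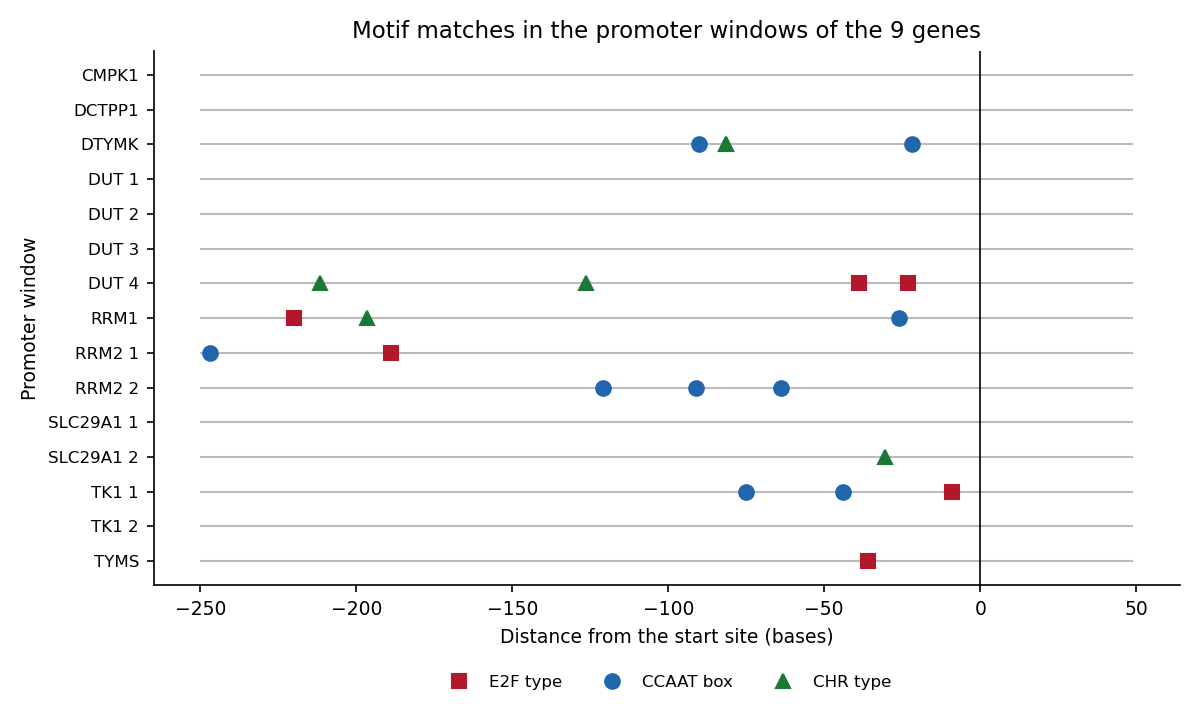
Motif matches in the 15 promoter windows of the 9 genes, by distance in bases from the annotated start site (vertical line); each grey line is a window, and windows of a gene are numbered. E2F type matches (squares) lie in 5 windows, CCAAT boxes (circles) in 5 and CHR type matches (triangles) in 4.

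Scaled by the exonic length of each gene, TK1 was the most abundant of the 9 transcripts in R183W vehicle cells, at 66.4 ± 8.76 CPM per kb (SD, n = 3), and CMPK1 the least, at 6.42 ± 0.134. RRM1 followed TK1 at 41.8 ± 4.48 and DUT at 37.2 ± 6.67 CPM per kb, 2 neighbours that did not differ beyond their spread. In WT vehicle cells DUT (43.6 ± 7.97 CPM per kb) and RRM1 (40.5 ± 5.75) came first, again within their spread, and TK1 came next at 29.9 ± 3.84. RRM2, the small subunit that pairs with RRM1, was far below it in both lines, at 9.88 ± 0.852 and 11.4 ± 0.882 CPM per kb. Under WM1119 TK1 was first in both lines, at 48.7 ± 1.16 CPM per kb in R183W (n = 2) and 55.1 ± 6.95 in WT cells (n = 3), where DUT (40.5 ± 12.1) and RRM1 (39.4 ± 16.6) lay within the spread. These lengths come from GENCODE release 29 and not from the annotation behind the counts. They join all annotated exons of a gene, so the order of genes could differ with the lengths of the transcripts expressed.

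**Figure D2:**
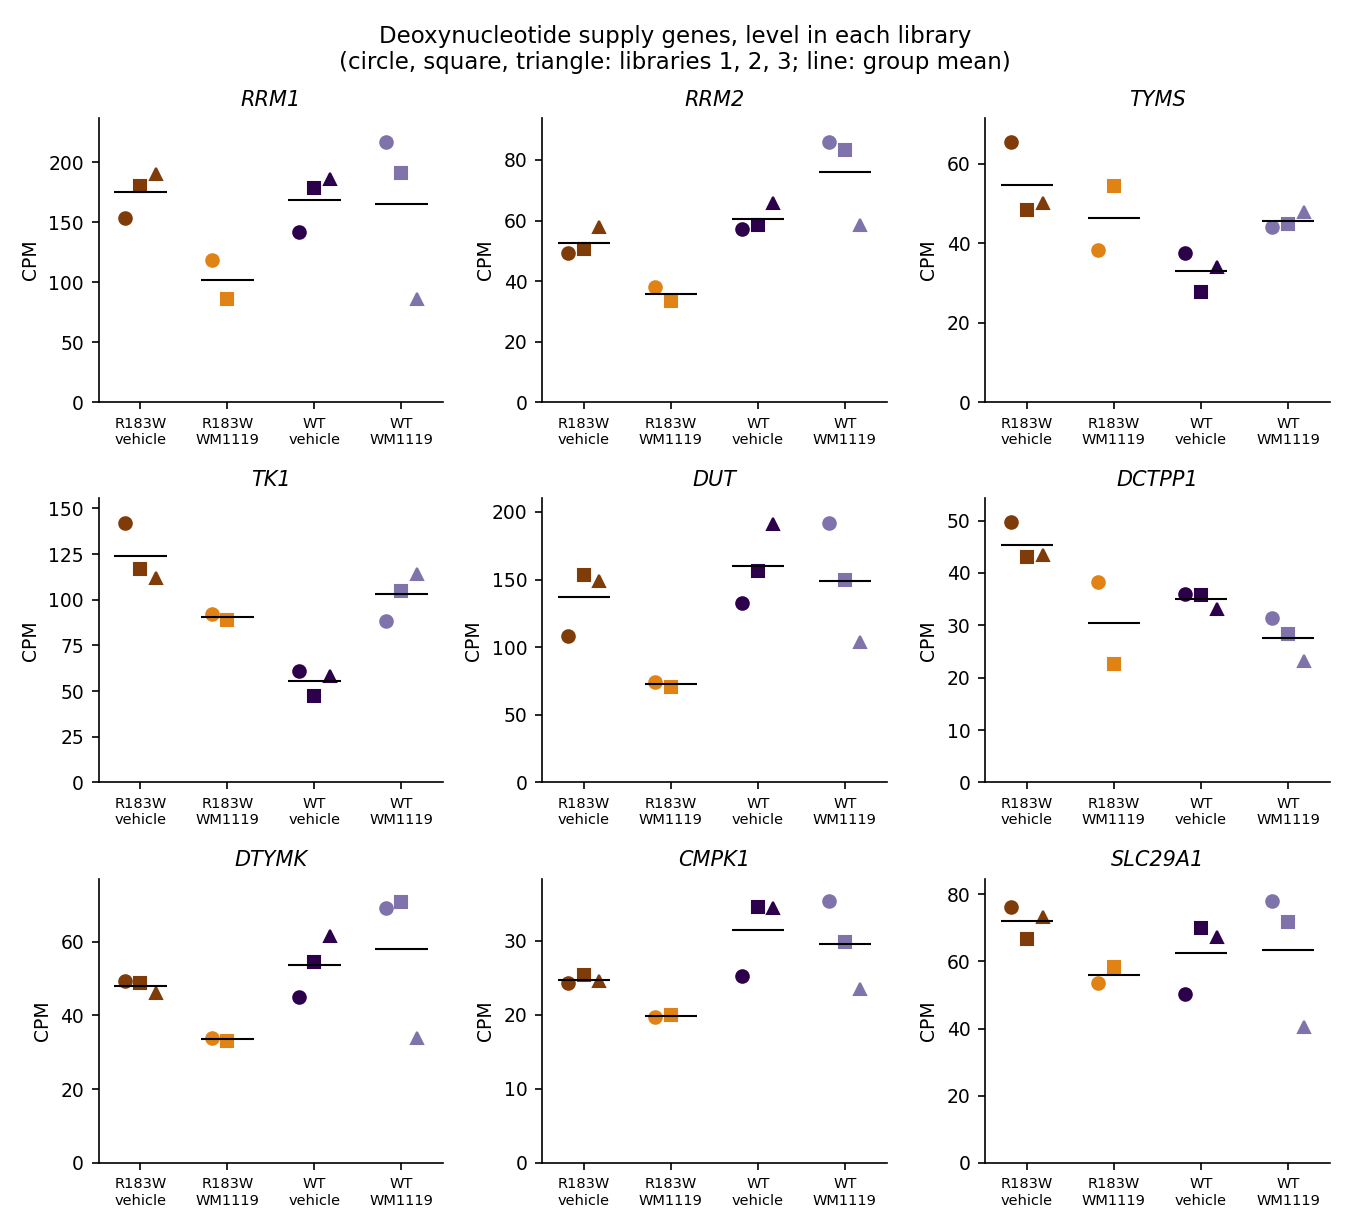
Level of each gene in CPM (y axis, from 0) in every library, by group; circles, squares and triangles are libraries 1, 2 and 3 and lines are group means. TK1 is lowest in WT vehicle cells (47.5 to 60.9 CPM), and RRM1, DTYMK and SLC29A1 are low in WT WM1119 library 3 compared with libraries 1 and 2.

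The inhibitor was followed by lower levels of most supply genes in R183W libraries and by a rise of TK1 in WT cells. In R183W cells all 9 fold changes were below 0, with a median log2 change of -0.52 (all genes tested, -0.00), and 1 gene, DUT, passed the test (edgeR quasi-likelihood test, Benjamini-Hochberg adjusted over all genes tested, called at an adjusted p under 0.05). In that comparison 2.65% of all genes were called lower. Changes below 0 were found for 7002 of all 13980 genes, and among lists described below for 15 of 15 S phase and 15 of 15 mitosis genes. Of 13 salvage and breakdown genes 7 were below 0. For 8 of the 9 genes, all but TYMS, both WM1119 libraries lay below all 3 vehicle libraries, while 23.6% of all genes did so. In WT cells the median was 0.03, TK1 was called higher, where 2.33% of all genes were, and no supply gene was called lower by edgeR or DESeq2. The 2 with an unadjusted p under 0.05 by edgeR were TK1 and TYMS, both higher. There TK1 and TYMS did not overlap on the high side (10.7% of all genes) and DCTPP1 did not on the low side (11.6%).

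Between the lines, TK1 and TYMS were higher in R183W than in WT cells under vehicle, where 6.82% of all genes were called higher, and the median log2 difference of the 9 was 0.04. Their groups did not overlap, and neither did those of DCTPP1; 19.3% of all genes lay apart on that side. Under WM1119 the order changed: RRM2 and DUT were lower in R183W cells, where 3.92% of all genes were called lower, and the median was -0.59. RRM2, DUT, DTYMK and CMPK1 lay apart on the low side, as did 16.3% of all genes. The interaction, the inhibitor effect in R183W less that in WT cells, was below 0 for all 9 genes (median -0.70; all genes, -0.01), and only TK1 passed the test in that direction, against 0.193% of all genes. It was also below 0 for 7095 of all 13980 genes, 15 of 15 S phase genes and 13 of 13 pyrimidine genes. Of 13 salvage and breakdown genes 4 were below 0. The 5 comparisons share libraries, so they are not independent of each other.

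**Figure D3:**
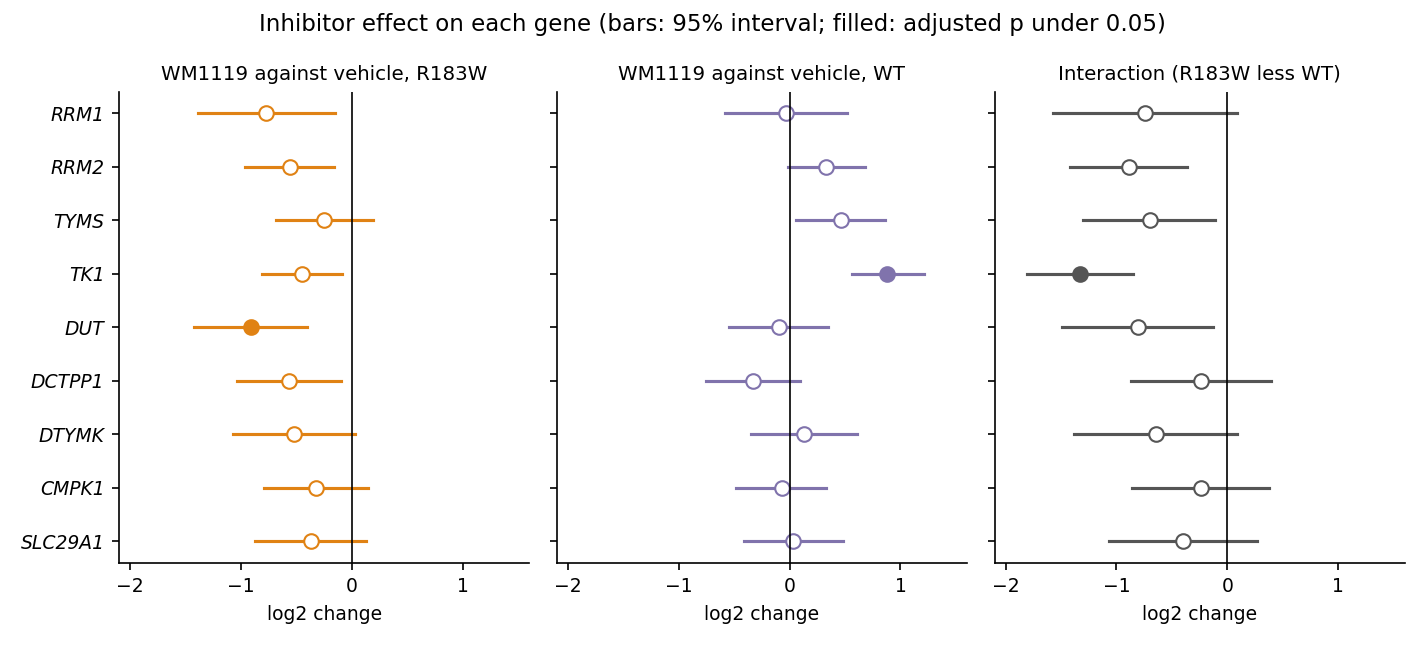
Log2 change of each gene with WM1119 in R183W cells (left), in WT cells (middle) and the difference of these changes (right); bars are 95% confidence intervals and filled points have an adjusted p under 0.05. All 9 points lie below 0 on the left and on the right, and DUT, TK1 and TK1 are filled in turn.

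TK1 (ENSG00000167900, chromosome 17), the thymidine salvage kinase, was the supply gene with the most calls, 3 of the 5 comparisons. It stood at 142, 117 and 112 CPM in R183W vehicle libraries and at 60.9, 47.5 and 58.3 CPM in WT vehicle libraries. With WM1119 it stood at 92.1 and 89.1 CPM in R183W and at 88.5, 105 and 114 CPM in WT cells. All WT vehicle libraries were thus below all others, and the 2 WM1119 groups overlapped. Under vehicle TK1 was 2.23-fold higher in R183W than in WT cells (log2 1.15, SE 0.15, 95% interval 0.83 to 1.48, edgeR adjusted p = 0.000206). The inhibitor raised it 1.84-fold in WT cells (log2 0.88, SE 0.15, interval 0.56 to 1.21, edgeR adjusted p = 0.00561), higher in 3 of 3 libraries. In R183W cells its log2 change was -0.45 (SE 0.17, interval -0.81 to -0.09, edgeR adjusted p = 0.156). The genotype difference under WM1119 was -0.17 (SE 0.17, edgeR adjusted p = 0.577), with an interval of -0.54 to 0.19. The interaction was -1.33 (SE 0.22, interval -1.81 to -0.85, edgeR adjusted p = 0.0257). The genotype call under vehicle held when any 1 of the 11 libraries was left out (edgeR adjusted p 9e-06 to 0.00188), as did the WT inhibitor call (0.00333 to 0.0363), though that one reached 0.0534 when only its 2 groups were fitted. The interaction passed in 3 of the 11 fits that left out a library, those without WT vehicle library 1, WT WM1119 library 1 or WT WM1119 library 3, and its edgeR adjusted p rose to as much as 0.200 in the other 8.

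TYMS (ENSG00000176890, chromosome 18), thymidylate synthase, resembled TK1 between the lines and did so with a smaller difference. Its levels were 65.5, 48.2 and 50.1 CPM in R183W vehicle and 37.5, 27.8 and 34.1 CPM in WT vehicle libraries. They were 38.2 and 54.4 CPM in R183W WM1119 and 44.1, 44.7 and 47.9 CPM in WT WM1119 libraries. The vehicle groups did not overlap, nor did WT cells with and without WM1119, while the 2 R183W WM1119 libraries lay on either side of all 3 WT WM1119 libraries and overlapped R183W vehicle libraries. Under vehicle TYMS was 1.65-fold higher in R183W cells (log2 0.72, SE 0.18, interval 0.33 to 1.12, edgeR adjusted p = 0.0188). That call was lost without R183W vehicle library 1 (adjusted p = 0.0940), WT vehicle library 2 (0.0868) or WT vehicle library 3 (0.0548), all by edgeR. The inhibitor difference in WT cells was 0.46 (SE 0.19, edgeR adjusted p = 0.174), higher in 3 of 3 libraries, and in R183W cells -0.25 (SE 0.20, edgeR adjusted p = 0.552). The gene lies opposite ENOSF1 and the divergent noncoding transcript TYMSOS, and whether counting used the strand is not stated, so reads of these genes cannot be told apart with certainty. TYMSOS was also higher in R183W vehicle cells, at 22.5 ± 4.42 against 6.41 ± 1.6 CPM (log2 1.82, SE 0.25, edgeR adjusted p = 0.000301), and ENOSF1 stood at 49 ± 2.85 against 39.1 ± 8.09 CPM (log2 0.33, edgeR adjusted p = 0.314). The TYMS pseudogenes held 0 counts in every library.

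DTYMK (ENSG00000168393, chromosome 2), thymidylate kinase, takes up the product of both TK1 and TYMS and followed neither. It stood at 49.3, 48.8 and 46 CPM in R183W vehicle and 45.1, 54.5 and 61.5 CPM in WT vehicle libraries, which overlapped. WM1119 libraries stood at 33.8 and 33.2 CPM in R183W and at 69.2, 70.9 and 33.9 CPM in WT cells. Its R183W WM1119 libraries were thus below every vehicle library, and WT WM1119 library 3 was with them rather than with its own group. The log2 change in R183W cells was -0.52 (SE 0.26, interval -1.07 to 0.03, edgeR adjusted p = 0.290), and the genotype difference under WM1119 was -0.81 (SE 0.26, interval -1.36 to -0.25, edgeR adjusted p = 0.0766). Without WT WM1119 library 3 both were called, at -0.54 (adjusted p = 0.0383) and -1.08 (0.000426), and so was the interaction, at -0.92 (0.0458), all by edgeR.

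RRM2 (ENSG00000171848, chromosome 2), the S phase subunit of ribonucleotide reductase, separated the 2 lines under the inhibitor. It stood at 49.3, 50.7 and 57.8 CPM in R183W vehicle and 57.1, 58.5 and 65.9 CPM in WT vehicle libraries. With WM1119 it was 37.9 and 33.5 CPM in R183W and 85.9, 83.2 and 58.6 CPM in WT cells. The R183W WM1119 libraries were the lowest of all 11, and WT WM1119 libraries 1 and 2 the highest. Under WM1119 RRM2 was 2.13-fold lower in R183W than in WT cells (log2 -1.09, SE 0.19, interval -1.49 to -0.69, edgeR adjusted p = 0.00277), lower in 2 of 2 libraries. That call was lost without R183W WM1119 library 2 (edgeR adjusted p = 0.0660) and when only those 2 groups were fitted (0.0558). The change with WM1119 was -0.56 (SE 0.19, edgeR adjusted p = 0.116) in R183W and 0.33 (SE 0.16, edgeR adjusted p = 0.249) in WT cells, and the interaction -0.89 (SE 0.25, edgeR adjusted p = 0.209). Leaving out WT WM1119 library 3 brought all 3 past the threshold, at -0.58, 0.48 and -1.06 (edgeR adjusted p = 0.0193, 0.0462 and 0.0129).

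RRM1 (ENSG00000167325, chromosome 11), the large subunit that carries the catalytic and regulatory sites, was among the most variable of the 9 between libraries. Its levels were 154, 180 and 190 CPM in R183W vehicle and 142, 179 and 186 CPM in WT vehicle libraries, and the genotype difference under vehicle was 0.04 (SE 0.25, interval -0.50 to 0.59, edgeR adjusted p = 0.934). Its WM1119 libraries stood at 119 and 86.1 CPM in R183W and at 217, 191 and 85.9 CPM in WT cells. The highest and the lowest of all 11 values thus came from 1 group, WT cells with WM1119, where the highest was 2.52 times the lowest. RRM1 was 102 ± 23 CPM (n = 2) in R183W WM1119 against 175 ± 18.7 (n = 3) in R183W vehicle cells, a log2 change of -0.77 (SE 0.29, interval -1.39 to -0.15, edgeR adjusted p = 0.165). Without WT WM1119 library 3 that change was -0.79 and was called (edgeR adjusted p = 0.00456), as were the genotype difference under WM1119 (-1.01, 0.000753) and the interaction (-1.06, 0.0224). The paralog RRM2B, the small subunit that serves cells outside S phase and after DNA damage, differed between the lines under vehicle: it was lower in R183W vehicle cells, at 12.1 ± 1.69 against 22.7 ± 3.97 CPM (log2 -0.90, SE 0.22, edgeR adjusted p = 0.0139).

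DUT (ENSG00000128951, chromosome 15), the dUTPase, fell in R183W cells given the inhibitor. It stood at 108, 153 and 149 CPM in R183W vehicle and at 74.4 and 70.7 CPM in R183W WM1119 libraries. WT cells held 133, 156 and 191 CPM with vehicle and 192, 150 and 104 CPM with WM1119. The 2 R183W WM1119 libraries were the lowest of all 11, and the other 3 groups overlapped. The fall in R183W cells was 1.88-fold (log2 -0.91, SE 0.24, interval -1.42 to -0.40, edgeR adjusted p = 0.0487), lower in 2 of 2 libraries and just inside the threshold. It was called in 5 of the 11 fits that left out a library; without R183W vehicle library 2 or 3, WT vehicle library 2, R183W WM1119 library 1 or 2, or WT WM1119 library 2 its edgeR adjusted p was 0.0724 to 0.312. Under WM1119 DUT was 2.06-fold lower in R183W than in WT cells (log2 -1.04, SE 0.24, interval -1.56 to -0.53, edgeR adjusted p = 0.0177). That call was lost without R183W WM1119 library 1 (0.124) or 2 (0.160), without WT WM1119 library 2 (0.0539) and when only those 2 groups were fitted (0.0929). In WT cells its log2 change was -0.10 (SE 0.21, interval -0.55 to 0.35, edgeR adjusted p = 0.821), and the interaction was -0.81 (SE 0.32, edgeR adjusted p = 0.432). Its processed pseudogenes held 0 counts in every library.

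DCTPP1 (ENSG00000179958, chromosome 16), the dCTP pyrophosphatase, was the only one of the 9 whose mean was lower with WM1119 in both lines by more than 0.3 on the log2 scale. It stood at 49.8, 43 and 43.4 CPM in R183W vehicle and 38.2 and 22.7 CPM in R183W WM1119 libraries. WT libraries held 35.9, 35.8 and 33.1 CPM with vehicle and 31.4, 28.3 and 23.1 CPM with WM1119. In each line every WM1119 library was below every vehicle library. None of its tests passed by edgeR or DESeq2 over the 11 libraries and 13980 genes, and 1 had an unadjusted p under 0.05 by edgeR, the change in R183W cells. The log2 change was -0.57 (SE 0.22, interval -1.04 to -0.10, edgeR adjusted p = 0.165) in R183W and -0.33 (SE 0.20, interval -0.75 to 0.09, edgeR adjusted p = 0.363) in WT cells. With only the 2 R183W groups fitted the R183W change was called by edgeR. Its lowest edgeR adjusted p under any alternative was 0.0488. The genotype difference under vehicle was 0.38 (SE 0.19, edgeR adjusted p = 0.215).

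CMPK1 (ENSG00000162368, chromosome 1) is the UMP and CMP kinase, and SLC29A1 (ENSG00000112759, chromosome 6) the equilibrative nucleoside transporter ENT1. Neither passed a test by edgeR or DESeq2 over the 11 libraries and 13980 genes. Only the CMPK1 genotype difference under WM1119 had an unadjusted p under 0.05 by edgeR, 0.0187. That difference was called in 1 of the 11 edgeR fits that left out a library (adjusted p = 0.0227). CMPK1 stood at 24.3, 25.3 and 24.5 CPM in R183W vehicle and 19.7 and 19.9 CPM in R183W WM1119 libraries. WT libraries held 25.2, 34.5 and 34.4 CPM of it with vehicle and 35.4, 29.8 and 23.5 CPM with WM1119. R183W libraries with WM1119 were again the lowest of the 11, and the genotype difference under WM1119 was -0.59 (SE 0.22, interval -1.07 to -0.12, edgeR adjusted p = 0.121). SLC29A1 stood at 76.1, 66.8 and 73.2 CPM in R183W vehicle and 53.5 and 58.3 CPM in R183W WM1119 libraries. In WT libraries it was 50.4, 69.9 and 67.4 CPM with vehicle and 78, 71.9 and 40.5 CPM with WM1119. Both the highest and the lowest of these values lay in WT cells with WM1119. Its log2 change with WM1119 was -0.37 (SE 0.23, interval -0.87 to 0.13, edgeR adjusted p = 0.416) in R183W and 0.03 (SE 0.21, interval -0.41 to 0.48, edgeR adjusted p = 0.944) in WT cells.

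In WT WM1119 library 3 all of the 9 genes but TK1 and TYMS were at the lowest level of their group. In it RRM1 was 85.9 CPM (exact Poisson 95% interval 74.6 to 98.4), DTYMK 33.9 (26.9 to 42), SLC29A1 40.5 (32.8 to 49.3) and DUT 104 (91.2 to 117), all below the intervals of libraries 1 and 2. RRM2, at 58.6 CPM (49.4 to 69.1), was also below their intervals (77.6 to 94.8 and 74.4 to 92.8), while DCTPP1 and CMPK1 intervals overlapped theirs. TK1 was 114 CPM in the same library (101 to 128) and TYMS 47.9 (39.6 to 57.4), the highest of the group for both genes. The TK1 interval overlapped that of library 2 (95.4 to 116), and the TYMS interval those of libraries 1 and 2. These intervals cover counting error only. Without that library 5 of the 9 genes were called lower with WM1119 in R183W cells (RRM1, RRM2, TK1, DUT and DTYMK), beside 6.58% of all genes, and 2 were called higher in WT cells (RRM2 and TK1), beside 2.55%. In WT cells 6 of the 9 then lay apart on the high side, beside 16.6% of all genes, and the median log2 change was 0.27. Under WM1119, RRM1, RRM2, DUT, DTYMK and CMPK1 were then called lower in R183W cells, beside 10.9% of all genes, and 6 genes lay apart on that side, beside 30.5%. The interaction was then called for RRM1, RRM2, TK1, DUT and DTYMK, beside 0.935% of all genes called lower. What sets the library apart was not tested.

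Ratios within a library do not depend on its scaling, and that of TK1 to RRM1 counts set the groups in another order. It was 0.925, 0.65 and 0.588 in R183W vehicle and 0.43, 0.265 and 0.313 in WT vehicle libraries. With WM1119 it was 0.777 and 1.04 in R183W and 0.409, 0.55 and 1.33 in WT libraries. Each R183W vehicle library was above each WT vehicle library, and WT WM1119 library 3 held the highest value of the 11. The ratio of TK1 to TYMS, the 2 thymidylate routes, varied less: it was 1.63 to 1.71 in WT vehicle libraries, 2 to 2.38 in WT WM1119 libraries, 2.17 to 2.42 in R183W vehicle libraries and 2.42 and 1.64 in R183W WM1119 libraries. The ratio of RRM2 to RRM1 was 0.282 to 0.435 in 10 libraries and 0.683 in WT WM1119 library 3. These are ratios of counts not divided by length, so they compare libraries and not the abundance of the 2 transcripts.

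Other genes of nucleotide metabolism, taken from lists chosen by function, were read from the same fit. In R183W cells 3 of the 13 tested genes of pyrimidine synthesis and nucleoside phosphate kinases fell, led by the CTP synthase CTPS1 (116 ± 2.73 to 44.7 ± 5.61 CPM, log2 -1.37, SE 0.16, edgeR adjusted p = 0.000388) and including the nucleoside diphosphate kinase NME1 (-0.74). Of 13 purine synthesis genes, GART fell (log2 -0.85, SE 0.15, edgeR adjusted p = 0.00626). In the thymidylate folate cycle 1 of 10 genes was called higher and 1 lower. Over all genes 1.99% were called higher and 2.65% lower in this comparison. None of the 13 tested genes of salvage and dNTP breakdown, which include RRM2B and the dNTP hydrolase SAMHD1, nor of 3 further nucleoside transporters, was called there; 1 and 2 of them had an unadjusted p under 0.05 by edgeR, and DESeq2 called 0. The medians were -0.02 for salvage and breakdown, -0.31 for the folate cycle, -0.17 for pyrimidine genes and -0.25 for purine genes, beside -0.52 for the 9 supply genes. CTPS2 and CMPK2 held 0 counts in every library.

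In WT cells CTPS1 fell again (82.7 ± 5.49 to 56 ± 8.38 CPM, log2 -0.57, SE 0.14, edgeR adjusted p = 0.0341), DGUOK, the mitochondrial deoxyguanosine kinase, fell (log2 -0.52), and SHMT2, which supplies one-carbon units, rose (log2 0.65); over all genes 2.53% were called lower and 2.33% higher. Between the lines under vehicle, FPGS, which retains folates in cells by polyglutamation, was higher in R183W cells (log2 0.57, SE 0.16, edgeR adjusted p = 0.0335), as were CTPS1 (0.49) and IMPDH1 (0.99), and RRM2B was the 1 gene of these lists called lower, beside 6.17% of all genes. Under WM1119 DGUOK (0.56), IMPDH1 (0.92) and the transporter SLC29A2 (1.19) were higher in R183W cells, where 4.64% of all genes were, and NME1 (-0.54) and GART (-0.64) were lower. No gene of these 5 lists passed the interaction test by edgeR. At an unadjusted p under 0.05 there were 3 in the folate cycle, 3 among pyrimidine genes and 1 each in salvage and purine synthesis, and DESeq2 called 1 and 2 in the first pair of these lists. Without WT WM1119 library 3, 1 folate cycle gene and 1 pyrimidine gene passed it by edgeR. Leaving out that library also took the purine genes called lower from 1 to 4 with the inhibitor in R183W cells and from 1 to 6 between the lines under WM1119. Over all genes the share called lower also rose, from 2.65% to 6.58% and from 3.92% to 10.9%. Folate cycle genes called lower went from 1 to 3 and from 0 to 2 in these comparisons, and those called higher in R183W cells under vehicle from 2 to 4, with 1 called lower. Pyrimidine genes called higher under vehicle went from 1 to 3, while all genes called there in either direction went from 1817 to 3151.

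**Figure D4:**
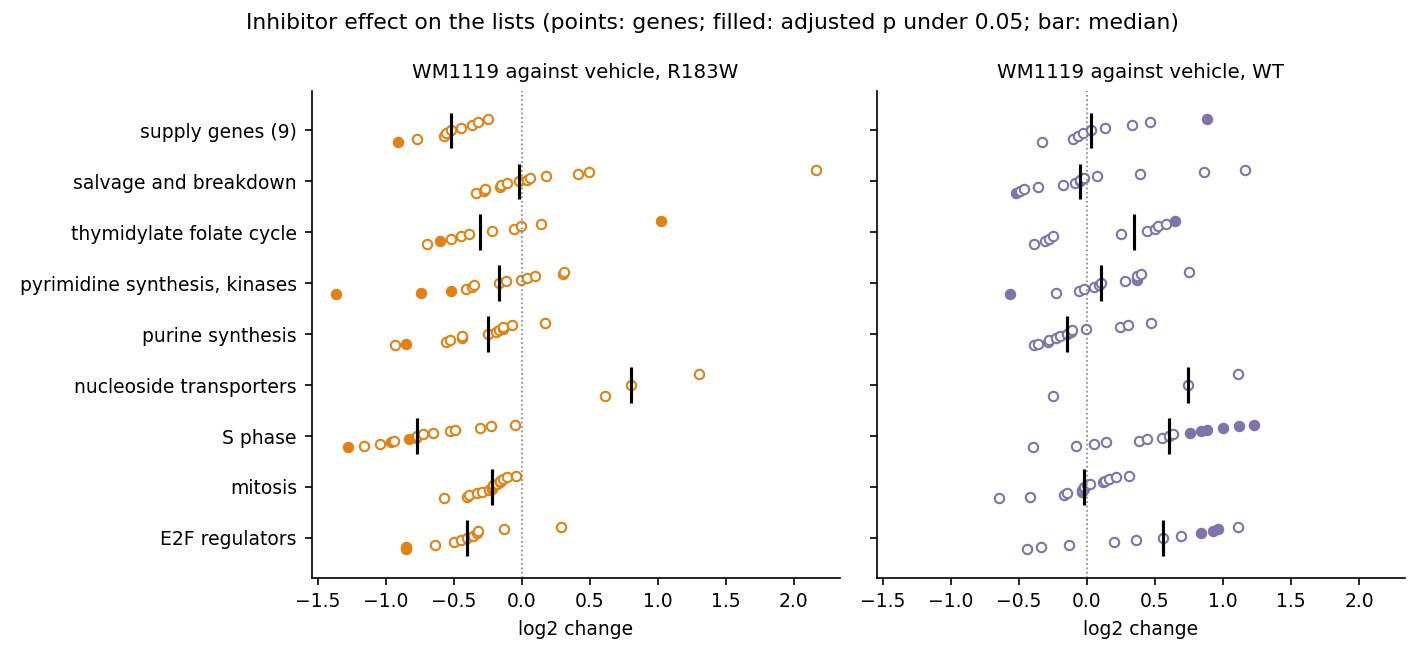
Log2 change with WM1119 (x axis, the same scale in both panels) of each tested gene in the supply group and 8 lists, in R183W (left) and WT cells (right); filled points have an adjusted p under 0.05 and bars are list medians. The S phase median is -0.77 on the left and 0.60 on the right, and that of the 9 supply genes -0.52 and 0.03.

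With the inhibitor some genes of DNA replication fell in R183W cells and some rose in WT cells. Of 15 S phase genes, among them the MCM helicase subunits, 4 fell in R183W cells (POLA2 -1.28, CDC6 -0.96, MCM3 -0.83 and MCM7 -0.78 on the log2 scale), with a list median of -0.77. CDC6, MCM3 and MCM7 were called in both lines in opposite directions, rising in WT cells by 0.84, 0.76 and 0.88. PRIM1 (-0.65 in R183W, -0.40 in WT) and MCM6 (-1.16 and -0.08) had changes of 1 sign in both lines. In WT cells 6 of the 15 rose, led by MCM5 (1.23), CDT1 (1.12), MCM4 (1.00) and MCM7 (0.88), with a median of 0.60. Under vehicle 6 of the 15 were higher in R183W cells, led by CDC6 and GINS2 (both 1.11), MCM4 (1.01) and MCM7 (1.00). Under WM1119 4 were lower in R183W cells: MCM6 (-1.21), MCM3 (-0.78), POLA2 (-0.75) and MCM7 (-0.67). The interaction passed for CDC6 (-1.79), MCM7 (-1.67), MCM3 (-1.59) and POLA2 (-1.42), at edgeR adjusted p of 0.0148 to 0.0274, and in 4, 7, 5 and 2 of the 11 fits that left out a library, in that order.

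Among 11 E2F regulators, E2F1, the transcription factor itself, was 59.3 ± 7.05 CPM in R183W vehicle and 27.9 ± 2.82 CPM in WT vehicle cells (log2 1.09, SE 0.19, edgeR adjusted p = 0.00255). With WM1119 it fell in R183W cells to 33.1 ± 7.06 CPM (log2 -0.85, edgeR adjusted p = 0.0471) and rose in WT cells to 50.2 ± 11.9 CPM (log2 0.84, edgeR adjusted p = 0.0294). The pocket protein gene RBL1 fell in R183W cells (-0.85), E2F2 (0.96) and CCNE2 (0.93) rose in WT cells, and E2F1 (-1.68) and RBL1 (-1.40) passed the interaction test, each in 3 of the 11 fits that left out a library. CCNE1 (1.32) and E2F2 (1.00) were higher in R183W cells under vehicle, and RBL1 (-1.25) was lower in them under WM1119. None of 15 mitosis genes was called with the inhibitor in either line, with medians of -0.22 and -0.02; 5 and 3 had an unadjusted p under 0.05 by edgeR, and DESeq2 called 2 and 1. Between the lines TOP2A (0.90), AURKB (0.71) and CDC20 (0.56) were higher in R183W cells under vehicle, and MKI67 (-0.45) was lower in them under WM1119. Without WT WM1119 library 3 the S phase genes called numbered 9 lower in R183W, 8 higher in WT, 7 higher under vehicle, 9 lower under WM1119 and 10 for the interaction. E2F regulators then numbered 3 lower in R183W, 2 higher in WT and 3 lower under WM1119, and mitosis genes 2 lower in R183W and 6 lower under WM1119, with 1 higher there. Over all genes 6.58% were then called lower in R183W, 2.55% higher in WT, 10.9% lower under WM1119 and 0.935% lower for the interaction. In either direction 3151 of 13897 genes were then called between the lines under vehicle and 2895 under WM1119. The summed CPM of the 15 S phase genes was 1054 to 1170 in R183W vehicle, 667 to 717 in WT vehicle, 668 and 698 in R183W WM1119 and 1078 to 1279 in WT WM1119 libraries. The TK1 level was below 100 CPM in all 5 libraries of the low pair of groups, and above 100 CPM in 5 of the 6 libraries of the high pair, WT WM1119 library 1 being the exception at 88.5 CPM. RRM1 did not follow that order: it was 142 to 186 CPM in WT vehicle libraries and 85.9 CPM in WT WM1119 library 3, where the S phase sum was the highest, 1279 CPM. In bulk RNA fewer cells in S phase and less RNA per cell cannot be told apart, and the part of cell-cycle position in the supply genes was not tested.

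**Figure D5:**
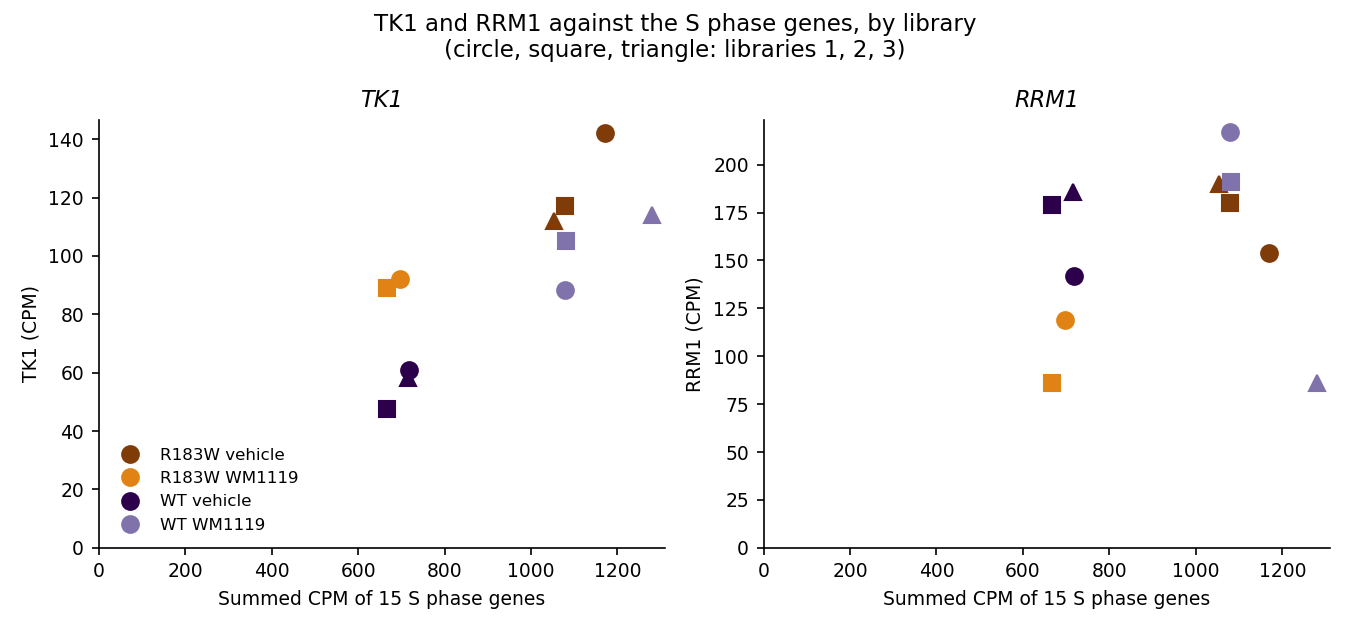
TK1 (left) and RRM1 (right) in CPM against the summed CPM of 15 S phase genes in each of the 11 libraries; colours are groups and circles, squares and triangles are libraries 1, 2 and 3. At sums of 667 to 717 CPM TK1 is 47.5 to 60.9 CPM in WT vehicle libraries and 89.1 and 92.1 CPM in R183W WM1119 libraries, and RRM1 is at 85.9 CPM in the library with the highest sum, 1279 CPM.

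The 9 genes did not share a single profile over the 11 libraries. Pearson correlations of each with the mean of their standardised log2 CPM, of which each is itself a part, were 0.916 for RRM1, 0.888 for DTYMK, 0.825 for SLC29A1, 0.82 for DUT, 0.744 for RRM2 and 0.698 for CMPK1, then 0.488 for DCTPP1, 0.146 for TK1 and 0.0773 for TYMS. Among the genes outside the group closest to that mean were HNRNPUL1 (0.972), ASF1B (0.961), DSN1 (0.959) and MT1A (0.955), chosen for this likeness, over 11 libraries that fall into 4 groups. ASF1B, a histone chaperone, shows the shape they share: 53.5, 51.2 and 61.6 CPM in R183W vehicle, 32.6, 35.8 and 61.7 CPM in WT vehicle, 28.3 and 21.4 CPM in R183W WM1119 and 66.6, 61.1 and 21.1 CPM in WT WM1119 libraries. It too was high in WT WM1119 libraries 1 and 2 and low in library 3. The 9 genes summed to 719 to 746 CPM in R183W vehicle, 587 to 732 in WT vehicle, 506 and 468 in R183W WM1119, and 841, 775 and 531 CPM in WT WM1119 libraries. The R183W WM1119 sums were the lowest of the 11, and the next lowest was that of WT WM1119 library 3.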

How the data were processed

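The authors deposited expected counts for each gene ID (estimated counts, all whole numbers in the file), which per the submitters' processing notes involved STAR, RSEM and hg19, without versions. Per the labels' protocols, RNA was purified on RNeasy columns with DNase I and libraries were built with ScriptSeq Complete Gold reagents; the labels give the molecule as polyA RNA. IDs were matched to GENCODE release 29, and IDs without a symbol held 0.89% of counts. Estimated counts share out reads that match several genes.

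Genes were filtered with filterByExpr and tested with edgeR 4.0.16 in R 4.3.3 (TMM, two-sided quasi-likelihood F test) using 4 group means over the 11 libraries, with no replicate block, at a biological coefficient of variation of 19.6%. P-values were adjusted over 13980 genes. DESeq2 1.42.0, other scaling, no filter, a replicate block, fits of 2 groups and leaving out each library were alternatives. The procedure was tested on simulated data. The 9 genes, the lists and the motifs were chosen with earlier results of these data known. Every one of the 9 genes is named, with up to 4 called genes per list and comparison that changed most; a few genes so chosen are left out of the text, while counts and medians include them.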

Additional observations from a re-analysis of the deposited data

Results flagged for a closer look

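The inhibitor effect differed between the 2 lines, by the edgeR interaction test, for 1 supply gene and 6 genes of the reference lists. The log2 difference (R183W less WT) was -1.33 for TK1, -1.59 for MCM3, -1.67 for MCM7, -1.79 for CDC6, -1.42 for POLA2, -1.68 for E2F1 and -1.40 for RBL1. Over all 13980 genes 40 passed this test, 27 of them below 0. These calls were not stable: in the 11 fits that left out a library TK1 was called in 3, MCM3 in 5, MCM7 in 7, CDC6 in 4, POLA2 in 2, E2F1 in 3 and RBL1 in 3. By edgeR 0 genes passed without R183W vehicle library 2 or 3 (1076 and 1125 at an unadjusted p under 0.05), 2 or 1 when R183W WM1119 library 1 or 2 was dropped, and 0 with a replicate block, while DESeq2 on all libraries called 169.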

How the results depend on the processing

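No supply gene changed direction except when a library was left out. Leaving out either R183W WM1119 library leaves 1, taken to vary like the other groups. With WM1119 in WT cells the log2 change ranged from -0.27 to 0.27 for RRM1, -0.33 to 0.10 for DUT, -0.05 to 0.38 for DTYMK, -0.23 to 0.05 for CMPK1 and -0.14 to 0.26 for SLC29A1. The genotype difference ranged from -0.06 to 0.14 for RRM1 under vehicle, and under WM1119 from -0.25 to 0.24 for TYMS and -0.31 to 0.45 for DCTPP1; the DCTPP1 interaction ranged from -0.69 to 0.07. Of the values of single supply genes under all alternatives, 645 kept direction and side of the threshold, 28 lost the call, 21 gained it and 17 changed sign.

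In the order inhibitor in R183W, inhibitor in WT, genotype under vehicle, genotype under WM1119 and interaction, genes called numbered 649, 680, 1817, 1197 and 40. DESeq2 called 975, 1115 and, for the interaction, 169. Without a filter on low counts 1110, 1287 and, for the interaction, 191 were called. Fitting only the 2 groups compared gave 2406, 139, 2929 and 319. Leaving out 1 library gave 118 to 1600, 247 to 1392, 965 to 3151, 386 to 2895 and 0 to 192. Supply genes called numbered 1, 1, 2, 2 and 1. Without the filter they were 2 for the inhibitor in R183W and 4 for the genotype under WM1119, beside 1110 and 1783 of 23410 genes called. With only the 2 R183W groups 1229 of 13215 genes were called lower, and supply genes called numbered 6, all lower. With only 2 groups they numbered 0 for the inhibitor in WT and 0 for the genotype under WM1119. Leaving out 1 library gave 0 to 5, 1 to 2, 1 to 2, 0 to 5 and 0 to 5. Each count of 5 came without WT WM1119 library 3, beside 6.58%, 10.9% and 0.935% of all genes called lower. Size factors by RLE changed no call of a supply gene.

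Whether equal replicate numbers mark pairs could not be settled, because deviations from a mean of 2 or 3 libraries must cancel within the group. These deviations correlated at -0.391 to 0.137 for equal numbers and at -0.163 to 0.405 for different numbers. With a replicate block 261, 287, 1189, 678 and 0 genes were called (1023 at an unadjusted p under 0.05 for the interaction by edgeR), and 0, 1, 1, 1 and 0 supply genes, DUT in R183W (0.139), TYMS under vehicle (0.0512), DUT under WM1119 (0.0589) and the TK1 interaction (0.146) being lost. With 2 libraries in R183W WM1119 and at most 3 elsewhere, differences near the intervals given were not detectable. The lowest total allows 1.24 CPM for a count of 0.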
